A study of Mus musculus with 30 samples.

Results

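The receptor for interleukin-12 (IL-12) is a pair of chains encoded by Il12rb1 and Il12rb2, and the transcripts of both genes were followed across all 10 groups of a mouse lymphocyte array study. Probe sets were taken by their RefSeq accession, which matched 3 of the 746 tested probe sets, and so 2 of 374 named genes. Il12rb1 has a pair of probe sets, of which the brighter one represents the gene and the other serves as a check. Il12rb2 has 1. The brighter one was picked by its mean over all arrays.

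The study's title concerns the remodelling of N-linked glycans when T lymphocytes of mice are activated. RNA came from spleen cells of male C57Bl/6 mice aged 6 to 10 weeks, and each group holds 3 arrays. CD4 T cells, the helper subset, and CD8 T cells, the cytotoxic subset, were measured fresh, without culture. Both subsets were also measured after culture with IL-2 at 4 ng/ml, with the same IL-2 and IL-4 at 10 ng/ml, or with the same IL-2 and IL-12 at 5 ng/ml. Fresh B cells were compared with B cells cultured with IL-4 at 10 ng/ml and anti-IgM at 10 ug/ml, which engages the B-cell antigen receptor. All T-cell cultures therefore carry IL-2, and no group was cultured without a cytokine, so that culture, activation and IL-2 cannot be told apart. The sources used here do not give any stimulus of the T-cell receptor in these cultures. For 4 arrays the experiment file notes 72 hours of culture. The labels do not state whether a group's 3 arrays trace back to different mice or cultures. The p-values below therefore measure the spread among arrays only, and that spread may be technical.

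As background, IL-12 is made by dendritic cells and macrophages and drives T and natural killer (NK) cells towards interferon-gamma production. The chain encoded by Il12rb1 binds the kinase Tyk2 and also serves the receptor for IL-23. The chain encoded by Il12rb2 belongs to the IL-12 receptor, binds Jak2 and carries the docking site for Stat4, the transcription factor through which IL-12 acts. Resting T cells are known to respond poorly to IL-12 until antigen-receptor stimulation brings up the receptor, and in helper cells IL-4 is known to hold Il12rb2 down.

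The RefSeq promoter table (GRCm38.p6), which matched 1 of the 2 genes, gives for Il12rb2 the window chr6:67376139-67376438 on the minus strand, from 250 bases before to 50 bases after the gene's start. It is shown because the transcript of this gene rose in every T-cell culture. Capitals mark 2 motif matches, read 5′ to 3′ on the gene's strand.
Il12rb2 promoter: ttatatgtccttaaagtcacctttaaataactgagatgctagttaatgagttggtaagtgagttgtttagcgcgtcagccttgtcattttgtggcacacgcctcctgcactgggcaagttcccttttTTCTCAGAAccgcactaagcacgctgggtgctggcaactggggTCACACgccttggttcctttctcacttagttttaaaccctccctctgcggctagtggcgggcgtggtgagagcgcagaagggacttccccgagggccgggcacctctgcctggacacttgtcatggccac
The first capitals match the STAT motif TTCNNNGAA, whose letters read the same on both strands, at 123 bases before the start, a motif held by 8.3% of the 32851 promoters of the table. The second match the T-box core TCACAC, 80 bases before the start and on the gene's strand, which 14.5% of promoters hold. The 2 matches do not overlap. Searched on both strands with no match in this window were the NFAT core GGAAA, the AP-1 motif TGANTCA, the GATA motif AGATAA, the Runx core TGTGGT, the Sp1 motif GGGCGG and the TATA motif TATAAA. Matches are a description of letters and were not tested for binding.

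The deposited intensities ran from 1 to 69827.5, and the median signal of an array from 115 to 204. Fresh and cultured arrays differed in RNA quality controls: the 3'/5' signal ratio of beta-actin was 0.876 to 1.16 on the 21 cultured arrays and 1.03 to 7.62 on the 9 fresh ones, where the CD4 array of title letter C had the highest and the next was 1.62. The tags in the files of 2 arrays, CD8 with IL-4 (letter C) and CD8 with IL-12 (letter D), disagree with their titles, and the titles were used. Of 10 T-cell marker genes only Cd2 is among the named genes, at 1939.5 to 12720 in T-cell arrays and 719 to 3003 in B-cell arrays, so the CD4 and CD8 labels were not checked against Cd4 or Cd8a. The summed signal of the B-cell markers Cd22, Fcer2a and Cxcr5, 3 of 8 listed, was 1169 to 3076 in fresh T cells, 353 to 1010 in cultured T cells and 8401 to 24976 in B cells. The descriptions of the T-cell arrays name B cells beside the subset, and titles decided the subset here.

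Across the 10 groups both transcripts were near the top of the array in every cultured T-cell group and lower in fresh T cells and in B cells. The 18 cultured T-cell arrays had Il12rb1 signals between 2375 and 7755 and Il12rb2 signals between 927 and 5891. The 12 fresh and B-cell arrays lay between 19.7 and 393 for Il12rb1 and between 80.1 and 223 for Il12rb2, with no overlap for either gene. Of all 746 probe sets, 2.55% were as cleanly higher in the cultured T-cell arrays. Within an array, Il12rb1 stood above 93.6% or more of the probe sets in each cultured T-cell sample and Il12rb2 above 87.4% or more. In fresh T cells and B cells Il12rb1 stood above 13.5% to 74.7% of the probe sets and Il12rb2 above 33.0% to 59.2%, around the middle of the array. These are mixtures of cells, and fewer cells of a type and less RNA per cell cannot be told apart.

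**Figure D1:**
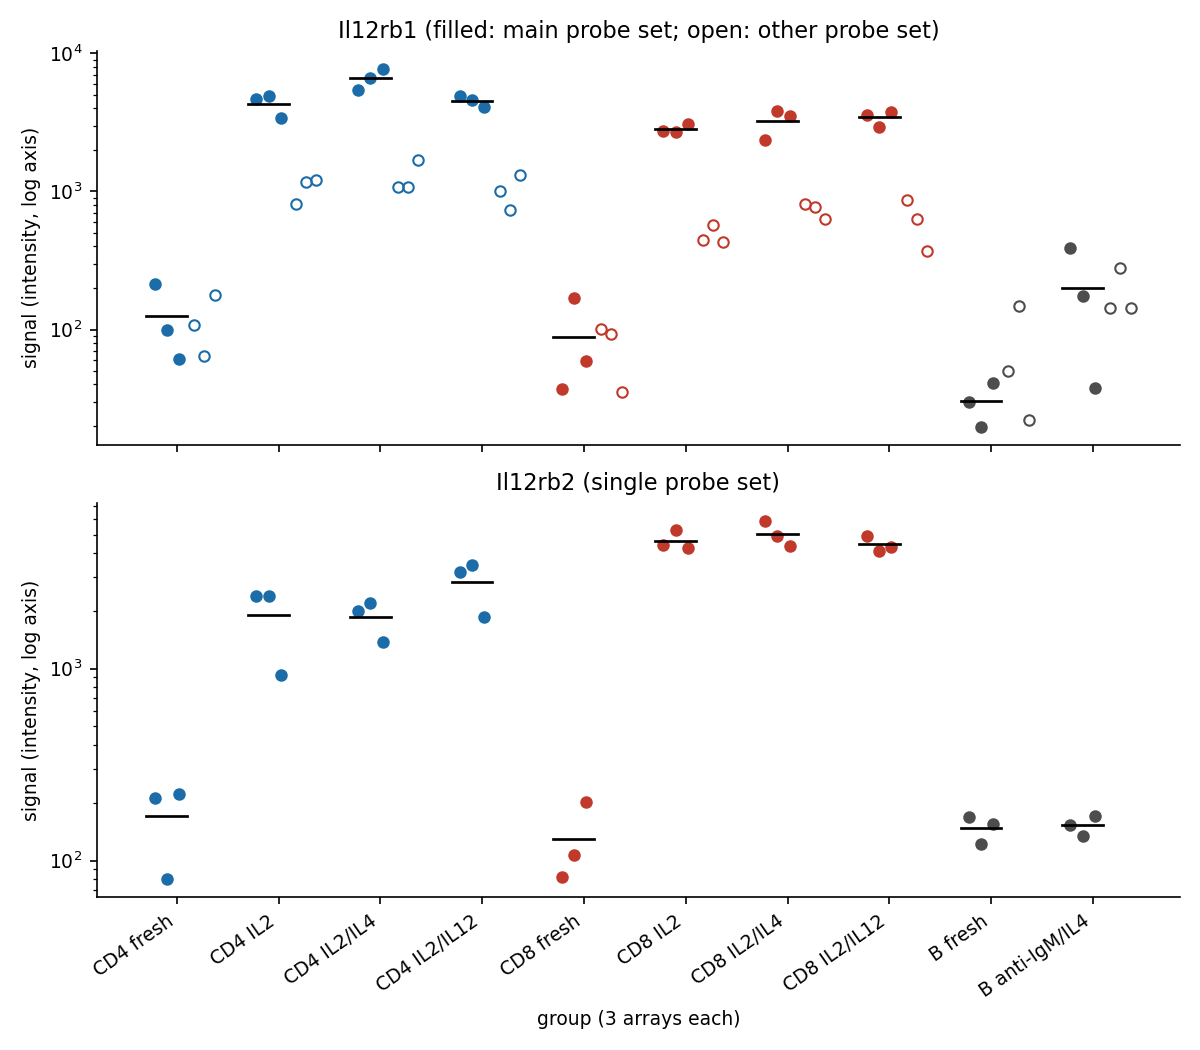
Signal of each array on a log axis, by group, for Il12rb1 (upper panel; filled points the main probe set, open points the other one) and Il12rb2 (lower panel); lines are means of 3 arrays of the main probe set. Cultured CD4 arrays are the highest for Il12rb1 on average, and the 9 cultured CD8 arrays, from 4101 to 5891, are the highest for Il12rb2.

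The order of the groups differed between the chains, as the plot of signals by group shows. Il12rb1 was highest in CD4 cells with IL-2 and IL-4, at 6604 ± 1140 (SD, n = 3), which did not overlap the next group, CD4 cells with IL-2 and IL-12 at 4553 ± 410. CD4 cells with IL-2 alone followed at 4323 ± 803. The CD8 cultures came next, with IL-12 at 3436 ± 443, with IL-4 at 3238 ± 760 and with IL-2 alone at 2834 ± 219, and from the second group to this one every neighbour overlapped the next. Activated B cells followed without overlap, at 201 ± 179. Fresh CD4 cells (125 ± 80.1), fresh CD8 cells (88.4 ± 70.4) and fresh B cells (30.4 ± 10.8) overlapped from one to the next.

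Il12rb2 was highest in the CD8 cultures, at 5044 ± 780 (SD, n = 3) with IL-4, 4630 ± 542 with IL-2 alone and 4440 ± 422 with IL-12, groups that overlapped each other. The CD4 cultures formed a lower block without overlap, at 2841 ± 855 with IL-12, 1897 ± 840 with IL-2 alone and 1856 ± 427 with IL-4. The fresh and B-cell groups followed without overlap, and their means were 171 ± 79.2 in fresh CD4 cells, 153 ± 18.4 in activated B cells, 149 ± 23.4 in fresh B cells and 130 ± 63.1 in fresh CD8 cells, each overlapping the next.

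Each culture of CD4 cells was set against fresh CD4 cells to ask how the receptor chains differed after that culture. Il12rb1, the shared chain, had signals of 215, 99.2 and 61.3 on the fresh arrays. It reached 4653, 4908 and 3408 with IL-2, then 5475, 6582 and 7755 with IL-2 and IL-4, and 4932, 4609.7 and 4118 with IL-2 and IL-12. The lowest cultured array was thus far above the highest fresh one in each culture. On the scale of log2(signal + 16), which understates changes of dim genes, the rise was 5.07 ± 0.51 (moderated SE; limma adjusted p = 5.4e-08) with IL-2. It was 5.69 ± 0.51 (7.93e-09) with IL-4 and 5.16 ± 0.51 (4.46e-08) with IL-12. In each of these contrasts it was the largest rise among the 746 probe sets, while the other Il12rb1 probe set ranked 9, 13 and 10.

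Il12rb2, the signalling chain that docks Stat4, had signals of 211, 80.1 and 223 on the fresh CD4 arrays. It reached 2384, 2379 and 927 with IL-2, then 1999, 2192 and 1375 with IL-4, and 3176, 3478 and 1869 with IL-12. No cultured array overlapped a fresh one, and within each culture a single array, of letter L or C, was the lowest. The rise was 3.34 ± 0.37 (limma adjusted p = 3.82e-07) with IL-2, 3.40 ± 0.37 (2.08e-07) with IL-4 and 3.99 ± 0.37 (2.75e-08) with IL-12. Both chains thus passed in all CD4 cultures, where 17.2% of probe sets passed with IL-2, 21.2% with IL-4 and 15.7% with IL-12 in either direction. Arrays did not overlap in 30.6%, 34.5% and 29.6% of probe sets.

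In CD8 cells the question was the same. Il12rb1 had signals of 37.1, 169 and 59.4 on the fresh arrays, and 2725, 2691 and 3086 with IL-2. It reached 2375, 3810.5 and 3527 with IL-4, and 3609, 2933 and 3765 with IL-12. All cultured arrays were above all fresh ones. The rises were 4.98 ± 0.51 (limma adjusted p = 5.77e-08), 5.14 ± 0.51 (3.48e-08) and 5.25 ± 0.51 (2.02e-08), the fifth, the fourth and the fifth highest among the probe sets, while the other Il12rb1 probe set ranked 19, 12 and 15.

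Il12rb2 had signals of 81.8, 108 and 202 on the fresh CD8 arrays and of 4409, 5248 and 4233.5 with IL-2. With IL-4 they were 5891, 4885 and 4356, and with IL-12 4913, 4101 and 4307. The cultured arrays of a group differed little from each other, again without overlap with fresh cells. The rises were 5.07 ± 0.37 (limma adjusted p = 2.85e-10), 5.18 ± 0.37 (1.73e-10) and 5.01 ± 0.37 (4.3e-10). Both chains passed in all CD8 cultures, where 16.1% of probe sets passed with IL-2, 18.1% with IL-4 and 14.6% with IL-12. Arrays did not overlap in 27.9%, 31.6% and 30.4%.

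Scan periods, the runs of scan days in the file headers, hold both fresh and cultured arrays only in part. Within the single period that holds CD4 cells fresh and with IL-4, Il12rb1 was higher by 4.70 and Il12rb2 by 3.22 on the log2 scale (2 arrays against 1). Within periods that hold fresh CD8 cells beside a culture, Il12rb1 was higher by 4.53 to 5.49 and Il12rb2 by 4.82 to 5.92. No period holds fresh CD4 cells beside IL-2 alone or IL-12.

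Some markers of other cells moved with culture. The dendritic cell genes Itgax, Xcr1 and Flt3, 3 of 5 listed, summed to 714 to 2310 in fresh and 49.5 to 278 in cultured T cells. Itgax fell in all 6 contrasts, with changes of -5.28 to -3.29, and was the 1 gene of the 3 that fell in CD4 cells, while 2 of 3 fell in each CD8 culture. Of all probe sets, 9.25%, 11.4% and 7.51% passed downwards in CD4 cells with IL-2, IL-4 and IL-12, and 8.71%, 9.52% and 7.51% in CD8 cells. Of 7 genes of platelets and vessels, Pf4, Itga2b, Vcam1 and Sele were measured and summed to 1805 to 5361.5 in fresh and 153 to 560 in cultured T cells. Vcam1 fell in all 6 contrasts, with changes of -4.74 to -3.42. The sum mostly follows Vcam1, whose mean in fresh CD4 cells was 3345, against 199 for Pf4, 202 for Sele and 36.0 for Itga2b. In CD8 cells Itga2b (mean 29.1 fresh, 41.0 with IL-4) and Sele (128 fresh, 153 with IL-12) did not fall in every culture. The sums of the myeloid genes Siglec1, Cd33 and Siglece, 3 of 7 listed, overlapped between fresh and cultured cells of each subset, at 442 to 798 and 108 to 590 in CD4 cells and 183 to 332 and 95.4 to 325 in CD8 cells. Their part in the change of the receptor chains was not tested.

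**Figure D2:**
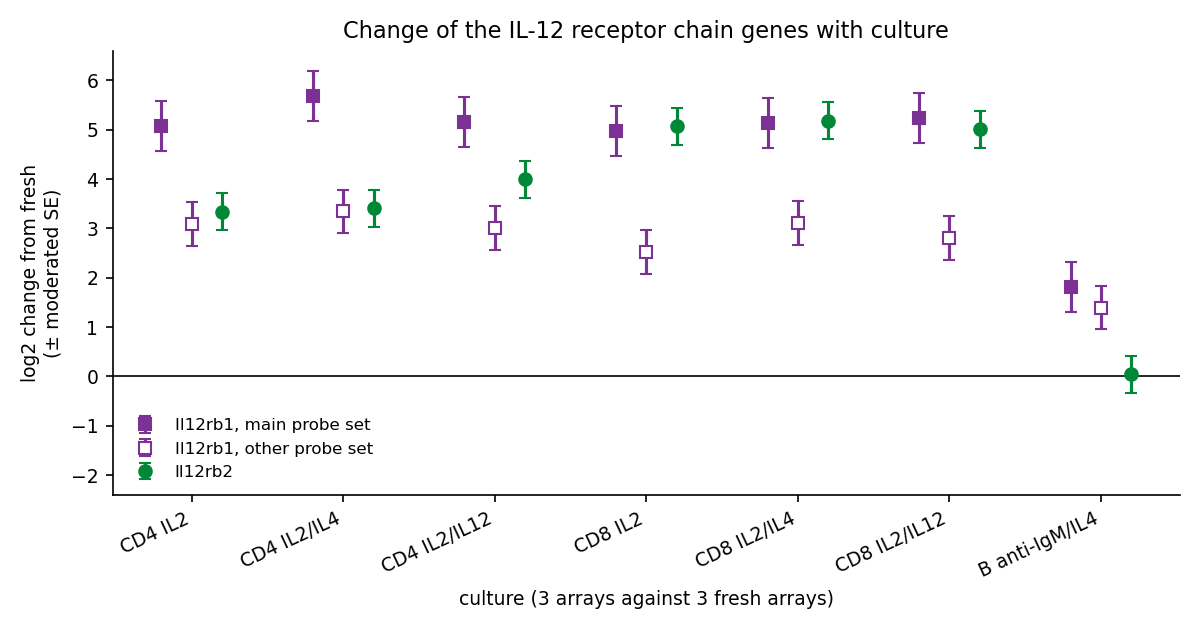
Log2 change from fresh cells with its moderated SE for each culture (3 arrays against 3). Il12rb1 rose by about the same amount in all T-cell cultures on its main probe set (4.98 to 5.69), Il12rb2 rose by 3.34 to 3.99 in CD4 and 5.01 to 5.18 in CD8 cells, and in B cells the Il12rb2 change was 0.04.

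The other Il12rb1 probe set passed in the same 6 contrasts, with no overlap of arrays, but with smaller changes, as the plot of changes from fresh cells shows. Its rises were 3.09, 3.34 and 3.01 in CD4 cells with IL-2, IL-4 and IL-12, and 2.52, 3.12 and 2.81 in CD8 cells, each with an SE of 0.44 and limma adjusted p-values of 3.4e-06 to 0.000123. Its cultured T-cell signals ran from 370 to 1691 and its fresh ones from 35.2 to 179. The size of the Il12rb1 change, though not its direction, therefore depends on the probe set. Over the 10 group means the pair of probe sets had a Pearson r of 0.982, as a description.

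Other parts of the pathway are thinly represented. Of 5 genes of the IL-12 family of cytokines only Il12a, a subunit of IL-12 itself, is named, with group means of 17 to 56.2, and it passed in none of the 6 culture contrasts. None of the 10 listed Janus kinases and STATs is among the named genes. Il6st, the shared signalling chain of the IL-6 family that also pairs in the IL-27 receptor, passed in none of the culture contrasts, with changes of -1.81 (CD8, IL-2) to -0.15 (CD4, IL-12).

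Other class I and II cytokine receptors did not share the rise. Of 20 measured, 0 passed upwards and 5, 9 and 3 passed downwards in CD4 cells with IL-2, IL-4 and IL-12. Of all probe sets, 7.91%, 9.79% and 8.18% passed upwards and 9.25%, 11.4% and 7.51% downwards. The receptors' median changes were -0.50, -0.91 and -0.28, against -0.11, -0.19 and -0.10 over all probe sets. In CD8 cells 0, 0 and 1 passed upwards and 3, 4 and 4 downwards, where 7.37%, 8.58% and 7.1% of all probe sets passed upwards and 8.71%, 9.52% and 7.51% downwards. Their medians were -0.64, -0.48 and -0.51 against -0.09, -0.11 and -0.09. The 1 that rose was Il2rb, a chain of the IL-2 receptor, by 1.65 in CD8 cells with IL-12. Among those that fell in all 6 contrasts were Il11ra1, an IL-11 receptor chain, by 1.96 to 2.80, and Il10ra, the ligand-binding chain for IL-10, by 0.88 to 2.09. These lists were chosen with earlier results known, and their counts are a description.

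Genes known as targets of IL-12 or as T helper 1 genes moved in both directions. Of 9 measured, 2, 4 and 3 rose and 0, 2 and 0 fell in CD4 cells with IL-2, IL-4 and IL-12, and 5, 5 and 5 rose and 3, 3 and 2 fell in CD8 cells. The shares of all probe sets were 7.91%, 9.79% and 8.18% upwards and 9.25%, 11.4% and 7.51% downwards in CD4 cells, and 7.37%, 8.58% and 7.1% upwards and 8.71%, 9.52% and 7.51% downwards in CD8 cells. The chemokine genes Ccl3 and Ccl4 rose in all 6 contrasts, Ccl3 by 3.38 to 6.24 and Ccl4 by 3.98 to 5.38. Cxcr3, a chemokine receptor of T helper 1 cells, fell by 3.20 to 3.43 in the CD8 cultures.

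Adding IL-4 or IL-12 to IL-2 changed neither chain past the threshold in either subset. Il12rb2 in CD4 cells was highest with IL-12, 1.5 times its mean with IL-2 alone, a log2 difference of 0.65 ± 0.37 (95% interval -0.12 to 1.42; limma adjusted p = 0.9996). Against IL-4 the difference was 0.59 ± 0.37 (-0.18 to 1.36; limma adjusted p = 0.647). The arrays overlapped in both comparisons. Taken by title letter, Il12rb2 in CD4 cells was higher with IL-12 than with IL-2 alone for D (3176 against 2384), E (3478 against 2379) and L (1869 against 927). The labels do not say whether a letter pairs the arrays, and no alternative fit gave this comparison a call. In CD8 cells, added IL-12 gave -0.06 ± 0.37 (-0.83 to 0.71), with overlapping arrays. With added IL-4, Il12rb2 differed by 0.06 ± 0.37 (-0.70 to 0.83) in CD4 and 0.12 ± 0.37 (-0.65 to 0.89) in CD8 cells. Arrays with IL-4 carry other title letters and in part other scan periods than those with IL-2 alone or IL-12. Within the scan period that holds both, IL-4 less IL-2 was -0.79 in CD4 cells (1 array against 2) and -0.06 in CD8 cells (2 against 2). For IL-12 less IL-4 it was 1.26 in CD4 cells (2 against 1) and 0.09 in CD8 cells (1 against 2). Cytokine and scan period therefore cannot be fully told apart here. Among all probe sets, 0% passed for IL-4 against IL-2 in CD8 cells and 0.536% for IL-12 against IL-4.

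For Il12rb1, CD4 cells with IL-4 were above those with IL-2 alone and those with IL-12 in every array. The log2 differences were 0.61 ± 0.51 (95% interval -0.43 to 1.66; limma adjusted p = 0.816) over IL-2 and, for IL-12 less IL-4, -0.52 ± 0.51 (-1.57 to 0.52; limma adjusted p = 0.787). Arrays did not overlap in 17.8% and 21.8% of probe sets in these comparisons, while 0.804% and 1.34% passed. On the other probe set the arrays overlapped. In CD8 cells Il12rb1 differed by 0.16 ± 0.51 (-0.88 to 1.21) with IL-4 and 0.27 ± 0.51 (-0.77 to 1.31) with IL-12. The difference between the subsets in the response to either cytokine was tested too, and passed for neither chain: for Il12rb2 it was 0.05 ± 0.53 (-1.03 to 1.14) with IL-4 and -0.71 ± 0.53 (-1.80 to 0.38) with IL-12. In these tests 0.402% and 0% of probe sets passed, and 0.268% for IL-12 against IL-4.

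A few other genes passed in these comparisons. Il4, the cytokine gene of T helper 2 cells, rose by 3.03 and Ccr4, a chemokine receptor of such cells, by 2.63 when IL-4 was added to CD4 cells. These were 2 of 6 measured genes of that side, where 0.804% of all probe sets passed in either direction and 0.536% upwards. Cxcr6, a chemokine receptor of effector cells, rose by 1.94 when IL-12 was added to CD8 cells, 1 of 9 measured T helper 1 genes, where 0.268% of all probe sets passed. In CD4 cells 1 probe set (0.134%) passed with added IL-12.

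CD8 cells were compared with CD4 cells in each condition. After culture Il12rb2 was higher in CD8 cells, and every one of the 9 cultured CD8 arrays, at 4101 to 5891, was above every one of the 9 CD4 arrays, at 927 to 3478. Of all probe sets, 1.47% were as cleanly higher in CD8 cultures. The mean difference over the cultures was 1.18 ± 0.21 on the log2 scale (95% interval 0.74 to 1.62; limma adjusted p = 0.000318), and 9.65% of probe sets passed in that contrast. In the scan period that holds all these groups (5 arrays against 5) the difference was 1.10. Fresh CD8 and CD4 cells overlapped, with a difference of -0.33 ± 0.37 (-1.10 to 0.44; limma adjusted p = 0.81), where 1.61% of probe sets passed.

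Taken by condition, Il12rb2 was higher in CD8 cells by 1.40 ± 0.37 (limma adjusted p = 0.0315) with IL-2 and by 1.45 ± 0.37 (0.02) with IL-4, where 3.22% and 3.89% of probe sets passed. With IL-12 the difference was 0.69 ± 0.37 (95% interval -0.08 to 1.46; limma adjusted p = 0.512), and 2.82% of probe sets passed. The arrays did not overlap with IL-2, IL-4 or IL-12, as was the case for 23.6%, 22.3% and 21.8% of probe sets. The call with IL-2 alone was lost when the CD4 array of letter L (0.95, adjusted p = 0.23) or the CD8 array of letter D (1.43, 0.0767), E (1.304, 0.116) or L (1.46, 0.0742) was left out. The call with IL-4 was lost without the CD4 array of letter C (1.25, 0.127) or the CD8 array of letter A (1.33, 0.111) or B (1.47, 0.057).

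Il12rb1 had differences of the opposite sign. Its signal was lower in CD8 than in CD4 arrays without overlap in each of the 3 cultures, where arrays did not overlap in 23.6%, 22.3% and 21.8% of probe sets. The differences were -0.59 ± 0.51 with IL-2, -1.04 ± 0.51 with IL-4 and -0.41 ± 0.51 with IL-12. None passed, nor did their mean of -0.68 ± 0.29 (95% interval -1.28 to -0.08; limma adjusted p = 0.194). On the other probe set the arrays overlapped with IL-12, while the mean difference over the cultures was -0.86 ± 0.26 and passed (0.0291). It also passed for the main probe set with a pseudocount of 64 (-0.67, adjusted p = 0.0415) and in a fit of the compared groups only (0.00199).

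**Figure D3:**
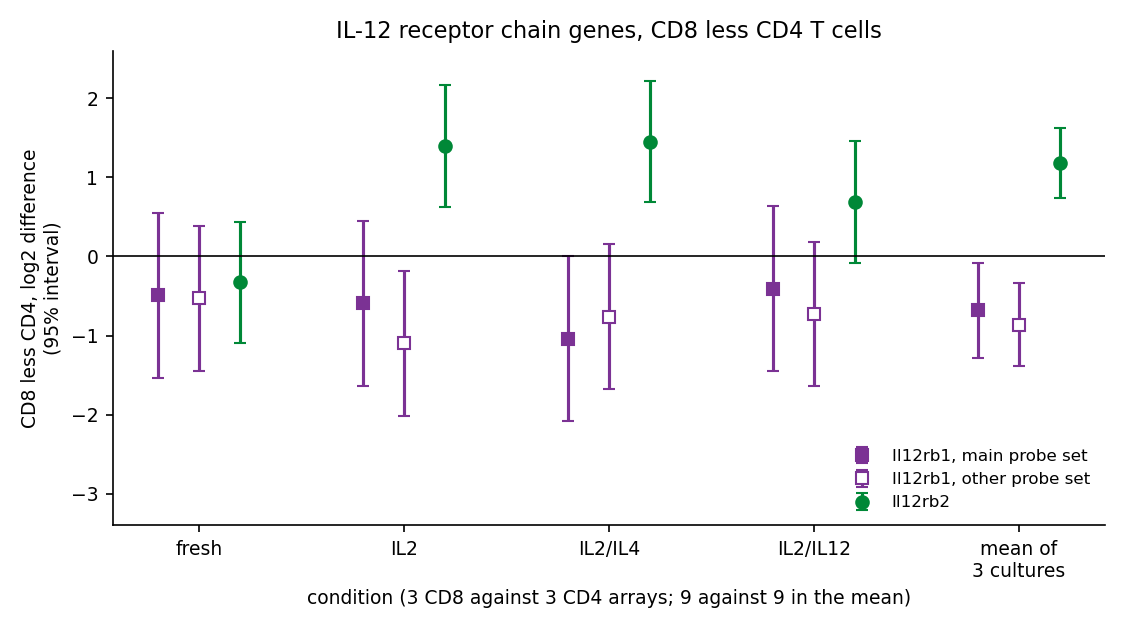
CD8 less CD4 cells, log2 difference with 95% interval, in fresh cells, in each culture and in the mean of the 3 cultures. The Il12rb2 differences are 0.69 to 1.45 in the cultures, with an interval that spans 0 in fresh cells and with IL-12. All differences of both Il12rb1 probe sets are below 0; the intervals of the main one span 0 in fresh cells and in each culture, and those of the other one in fresh cells, with IL-4 and with IL-12.

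Whether culture raised Il12rb2 more in CD8 than in CD4 cells was tested as an interaction. The difference of the rises was 1.51 ± 0.43 over the cultures (limma adjusted p = 0.0461), with 4.02% of probe sets passing. By condition it was 1.73 ± 0.53 (0.0904), 1.78 ± 0.53 (0.073) and 1.02 ± 0.53 (0.541), none of which passed, against 2.55%, 2.68% and 0.804% of probe sets. The pooled call was lost in 19 of 24 fits that left out an array. It was kept without the CD4 arrays fresh B, IL-2 D, IL-2 E and IL-12 E or the fresh CD8 array C. Over all 24 fits the difference lay between 1.26 and 1.93. For Il12rb1 the difference of the rises was -0.19 ± 0.58 (95% interval -1.39 to 1.02; limma adjusted p = 0.946).

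Of 7 listed markers of NK cells, which also carry the IL-12 receptor, Klrd1 and Itga2 were measured, and 1 of these 2 differed between the subsets. Over the mean of the cultures, 9.65% of all probe sets passed in either direction. Klrd1, a receptor chain of NK cells and of activated CD8 cells, was higher in CD8 cultures by 3.30 (limma adjusted p = 7.77e-10), while Itga2, an integrin chain, differed by -0.02 (0.977). Their summed signal was 300.1 to 1835 in cultured CD4, 4925 to 9543 in cultured CD8, 976 to 1389 in fresh CD4 and 3757 to 5685 in fresh CD8 arrays. Their part in the Il12rb2 difference was not tested.

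Over the mean of the cultures, 3 of the 20 other cytokine receptors were higher in CD8 cells and 1 was lower, where 3.35% of all probe sets were higher and 6.3% lower. These were Il2rb (1.03), Il7r, the IL-7 receptor chain (0.96), Ifngr1, the ligand-binding chain for interferon-gamma (0.64), and its partner Ifngr2 (-0.88). Of the 9 T helper 1 genes 2 were higher, Ccl3 by 1.61 and Ccl4 by 0.90, and 2 were lower, Cxcr3 (-1.43) and the chemokine gene Ccl5 (-1.64). Of the 6 genes of the IL-4 side 4 were lower, the cytokine genes Il4 (-3.29) and Il13 (-1.65) and the chemokine receptors Ccr4 (-1.63) and Ccr8 (-1.59).

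Within each array, log2(signal + 16) of Il12rb1 was subtracted from that of Il12rb2. Because of the added 16, scaling of a whole array cancels only in part where signals are low. The probe sets bind with unknown strength, so that the value 0 has no meaning of its own and only differences between arrays were read. In CD4 cells it was -0.96, -1.04 and -1.86 with IL-2, then -1.45, -1.58 and -2.48 with IL-4, and -0.63, -0.40 and -1.13 with IL-12. In CD8 cells it was 0.69, 0.96 and 0.45 with IL-2, then 1.31, 0.36 and 0.30 with IL-4, and 0.44, 0.48 and 0.19 with IL-12. No cultured CD4 array reached any cultured CD8 array. The subset difference was 1.86 on the log2 scale, and an exact two-sided permutation test with labels exchanged within each culture gave p = 0.00025, the smallest that its 8000 arrangements can give. In each culture every CD8 array was above every CD4 array for Il12rb2 and below it for Il12rb1. The separation and its p therefore follow from those values and add no support to them. With the other Il12rb1 probe set the subset difference was 2.04 with the same p.

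**Figure D4:**
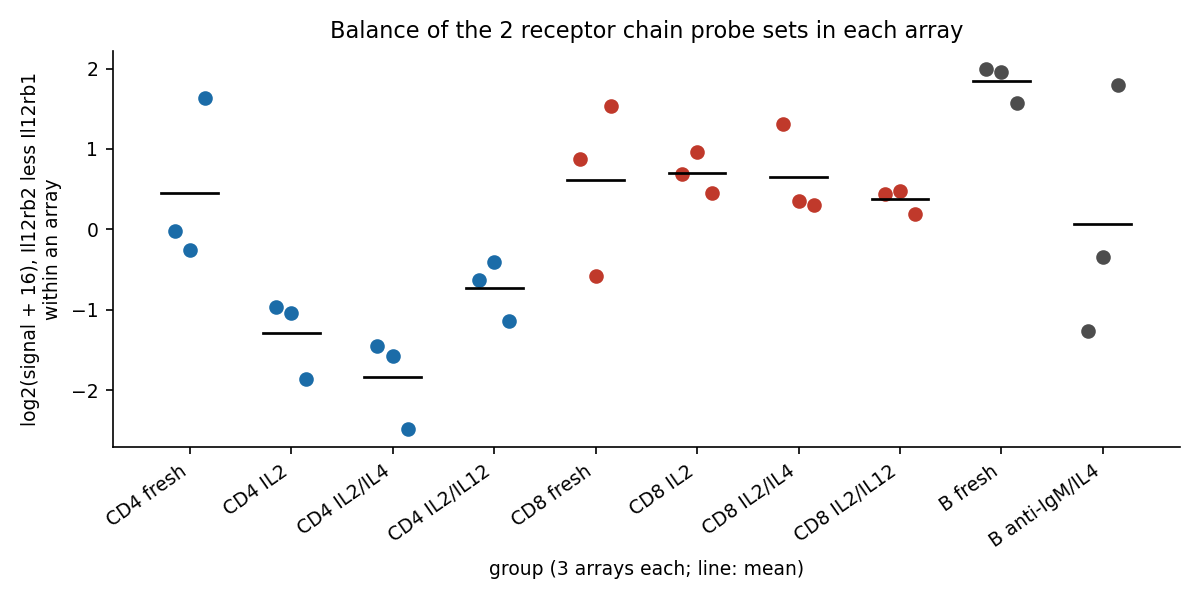
Within-array difference of log2(signal + 16), Il12rb2 less Il12rb1 (main probe set), 1 point per array, by group, with the mean of 3 arrays as a line. Cultured CD4 arrays lie between -2.48 and -0.40 and cultured CD8 arrays between 0.19 and 1.31, while fresh arrays of both subsets overlap.

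Within a subset the same measure was compared between conditions, 17 pairs of groups in all with the subset pairs included. With 3 arrays against 3 the exact permutation test cannot go below 0.1, and no adjusted value was below 0.243. In CD4 cells the measure was lower after culture than in fresh cells by 1.73, 2.28 and 1.17 on the log2 scale with IL-2, IL-4 and IL-12, without overlap. With the other Il12rb1 probe set these differences were 0.25, 0.06 and 0.98 in the opposite direction, with overlapping arrays, so the direction of this shift in CD4 cells depends on the probe set. In CD8 cells the measure differed from fresh cells by -0.24 to 0.09 on the main probe set, with overlap, and by 2.07 to 2.55 on the other, without. Cultures with IL-12 and with IL-4 differed by 1.11 in CD4 cells without overlap on the main probe set, and by 0.93 with overlap on the other.

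The change of B cells with culture was set beside that of T cells. Il12rb2 did not differ between fresh B cells, at 168, 123 and 155, and activated ones, at 154, 134 and 170.4, beyond their spread. The log2 difference was 0.04 ± 0.37 (95% interval -0.73 to 0.81; limma adjusted p = 0.966). Those levels lie in the range of the fresh T-cell arrays, and without detection calls they are not shown to be above background.

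Fresh B cells were also set against fresh T cells. Il12rb1 in B cells differed by -1.48 ± 0.51 from CD4 cells (95% interval -2.53 to -0.44; limma adjusted p = 0.0847) and by -0.99 ± 0.51 from CD8 cells (limma adjusted p = 0.306), and neither difference passed, where 6.7% and 8.18% of probe sets did. B and CD4 arrays did not overlap, as was the case for 17.8% of probe sets. Without the CD4 array of letter C, whose 3'/5' ratio was 7.62, the difference from CD4 cells was -1.84 and passed (0.0407). On the other Il12rb1 probe set the differences were -0.75 ± 0.44 from CD4 cells (limma adjusted p = 0.449) and -0.22 ± 0.44 from CD8 cells (0.906). Its arrays overlapped in both, so the separation from CD4 cells depends on the probe set. Il12rb2 differed by -0.09 ± 0.37 from CD4 and 0.24 ± 0.37 from CD8 cells, with overlapping arrays.

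Il12rb1 in B cells was 30.1, 19.7 and 41.3 on the fresh arrays of letters G, E and K. It was 393, 174 and 37.5 on the activated arrays of letters G, H and K, so that the third activated array lay within the fresh range. The change of 1.82 ± 0.51 passed (limma adjusted p = 0.0219), where 9.79% of probe sets did and arrays did not overlap in 22%, and that of the other probe set was 1.40 ± 0.44 (0.0458), also with overlapping arrays. Within the 3 scan periods, each with 1 array per group, the difference on the other probe set was 1.275, 0.86 and 2.06. For the main probe set it was 3.15, 2.41 and -0.10, so the lack of a rise in the third period depends on the probe set. The call was lost without the activated array of letter G (1.15, adjusted p = 0.178) or H (1.70, 0.0808) and without the fresh array of letter G (1.83, 0.0552) or E (1.64, 0.0965). It was also lost with scan day as a block (1.28, 0.13) and in a fit of B cells alone (0.236).

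Activated B cells were far below T cells cultured with the same concentration of IL-4. Il12rb1 was lower by -5.35 ± 0.51 than in CD4 and -4.31 ± 0.51 than in CD8 cells, and Il12rb2 by -3.45 ± 0.37 and -4.90 ± 0.37, with limma adjusted p-values of 4.32e-10 to 5.4e-07 and no overlap. In these contrasts 20.5% and 21.4% of probe sets passed, and arrays did not overlap in 33.5% and 34.7%. The difference of the changes from fresh, T less B, was 3.87 ± 0.72 for Il12rb1 and 3.36 ± 0.53 for Il12rb2 in CD4 cells, and 3.32 ± 0.72 and 5.14 ± 0.53 in CD8 cells. All 4 passed, where 7.1% and 8.45% of probe sets did. Both subsets were set against the same B-cell arrays. On the other Il12rb1 probe set the differences were 1.95 (adjusted p = 0.06) and 1.72 (0.1), and neither passed.

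Candidates were 275 named genes, the chains left out, whose highest group mean was above the median of all probe set means. A gene could thus enter through a single high group. Among these candidates were sought the genes whose pattern over the 10 group means was most like each chain. For Il12rb1 they were Tnfrsf18 (Pearson r of 0.994) and Tnfrsf4 (0.987), costimulatory receptors of the TNF receptor family, then Rpn2, a subunit of oligosaccharyltransferase (0.944), and the glycolysis genes Aldoa (0.932) and Hk1 (0.931). For Il12rb2 they were the chemokine genes Ccl3 (0.987) and Ccl4 (0.950), the growth factor gene Vegfa (0.939), Tnfrsf18 (0.927) and Psmb3 (0.909), a proteasome subunit. Il12rb1 and Il12rb2 themselves had an r of 0.934. The measure ignores size: the group means of Il12rb1 spanned 7.17 on the log2 scale and those of Tnfrsf4 6.48, against 0.51 for Rpn2. All of these values share the step between fresh and cultured cells and the same arrays, and they are given as a description. Over the 30 arrays Tnfrsf4 (0.968) and Tnfrsf18 (0.958) again led for Il12rb1 and Ccl3 (0.952) and Ccl4 (0.908) for Il12rb2, while Rpn2 stood at rank 24 and Psmb3 at rank 17.

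**Figure D5:**
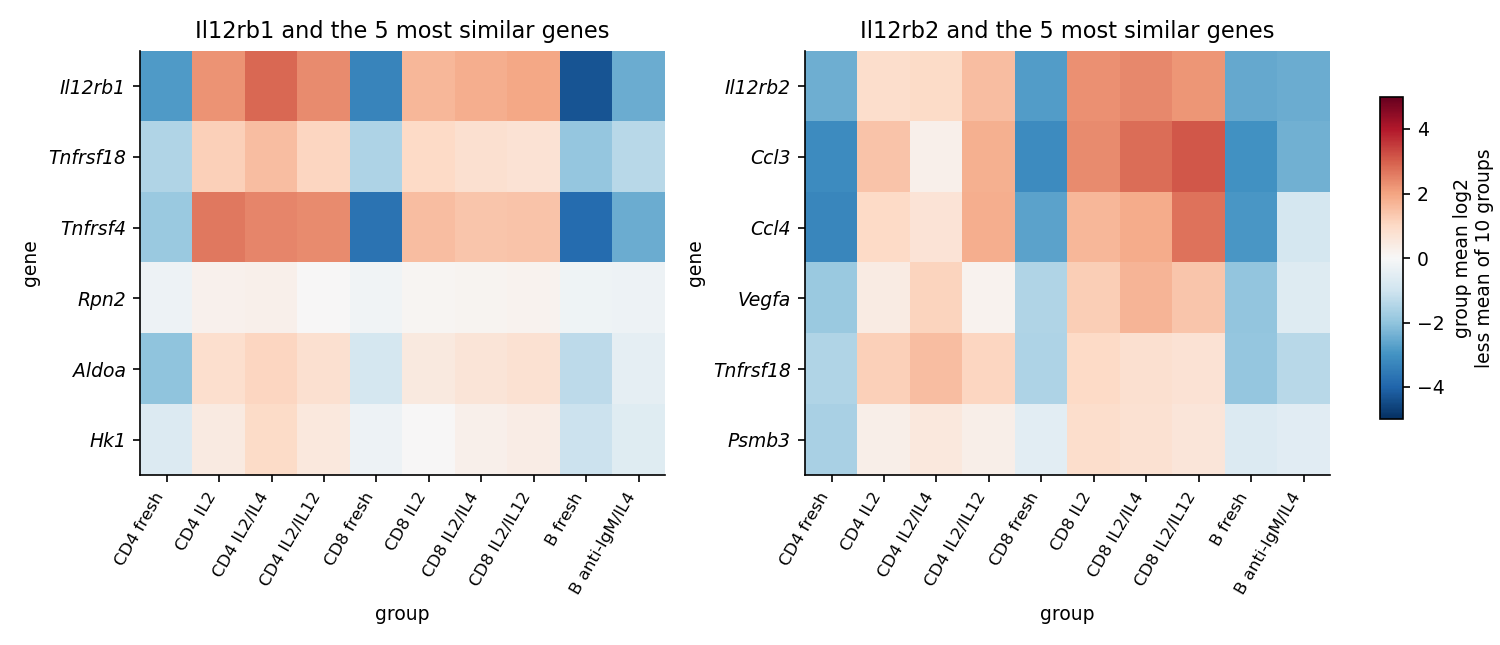
Group means of log2(signal + 16) less the mean of the 10 groups for each chain and the 5 genes with the most similar pattern; colour gives the deviation on the log2 scale. Every gene shown is below its mean in the fresh groups and above it in the T-cell cultures, though by only 0.01 for Hk1 (CD8 with IL-2) and 0.03 for Rpn2 (CD4 with IL-12).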

How the data were processed

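Values are linear intensities as deposited by the authors, 1 for each probe set on each of 30 custom Affymetrix arrays, whose type the experiment files name. How probes were summarised and scaled, and any detection call, is not given in the sources used here. Control probe sets, 6 in all, were left out. Names came from a RefSeq gene table (GRCm38.p6), which matched 449 of 462 accessions. Groups and letters are those of the array titles. One model of 10 group means was fitted to log2(signal + 16) over 30 arrays and 746 probe sets with limma 3.58.1 in R 4.3.3 (20 residual degrees of freedom), after being tested on simulated data. Each contrast was adjusted by Benjamini-Hochberg with a threshold of 0.05, and errors are moderated SEs. Exact permutation tests used scipy 1.17.1. Scan periods are runs of scan days more than 40 days apart, 5 in all. Members and gene lists were chosen with earlier results of these data known. Named are both chains, up to 4 genes per list, those with the largest absolute change in a contrast, and the 5 most similar genes per chain. Alternatives covered the pseudocount, scaling, dim probe sets, blocks, the 3'/5' ratio and single arrays. The number of arrays limits the precision.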

Additional observations from a re-analysis of the deposited data

Results flagged for a closer look

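The listed results are tests of a difference between cell types in the change with culture. The rise of Il12rb2 over the 3 cultures was larger in CD8 than in CD4 cells by 1.51 on the log2 scale (limma adjusted p = 0.0461). That call is not stable: it was lost in 19 of 24 fits that left out an array, and in 28 of 37 alternatives in all. The rise with IL-4 was larger in T cells than the change of B cells with anti-IgM and IL-4 for Il12rb2 and for the main probe set of Il12rb1. The differences were 3.87 (0.000853) for Il12rb1 and 3.36 (0.000157) for Il12rb2 in CD4 cells, and 3.32 (0.00419) and 5.14 (5.24e-07) in CD8 cells. On the other Il12rb1 probe set neither difference passed, at 1.95 (0.06) and 1.72 (0.1).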

How the results depend on the processing

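Of 69 results, 11 changed their call under any of the alternatives, and no called value changed sign. The 12 rises of the chains in T-cell cultures and the subset difference of Il12rb2 over the cultures (1.01 to 1.25) kept their calls throughout. For Il12rb2, CD8 less CD4 with IL-2 lost its call with pseudocount 1 (1.41), quantile normalization (1.04), scan period (1.05) or scan day (1.06) as a block, the compared groups only (1.40) and the fixed replicate block (1.40), and single arrays left out gave 0.95 to 1.62. With IL-4 it lost it under the fixed replicate block (1.45), and single arrays gave 1.25 to 1.58. Il12rb2, CD8 less CD4 change over the cultures lost its call with pseudocount 1 (1.54), median centring (1.39), quantile normalization (1.18), scan period (1.52) or scan day (1.66) as a block, the 3'/5' ratio (1.25) and the compared groups (1.51), and single arrays gave 1.26 to 1.93. It also lost it without the 2 arrays of conflicting tags (1.52) or with them exchanged (1.51), alternatives chosen after seeing the data. By condition that difference gained a call with IL-2 under pseudocount 64 (1.63) and trended robust variances (1.73). It also gained one in 2 of 12 fits that left out an array, which gave 1.28 to 2.15. With IL-4 it gained one under pseudocount 64 (1.69), without the dimmest 40% (1.78), with scan period (1.98) and with trended robust variances (1.78). It did so too in 2 of 12 fits that left out an array, which gave 1.53 to 2.21. For Il12rb1, CD8 less CD4 over the cultures gained a call with pseudocount 64 (-0.67), the compared groups (-0.68) and the other probe set (-0.86). Activated less fresh B cells lost it with scan day (1.28), the compared groups (1.82) and the fixed replicate block (1.52), with single arrays at 1.15 to 2.61. Fresh B less CD4 cells gained one with the 3'/5' ratio (-1.80) and trended robust variances (-1.48), with single arrays at -1.84 to -1.05. T less B changes lost it on the other probe set (1.95 and 1.72), for Il12rb1 in CD8 cells in the compared groups (3.32) and for Il12rb2 in CD4 cells with scan day (2.76). The cause was not tested. The replicate block takes the title letter, and the labels do not say whether a letter pairs the arrays. Of 39 same-letter pairs, 9 had residual correlations over 0.1 (median 0.04), and the random block changed no call. Median centring moves the median change of all probe sets with culture from between -0.19 and -0.09 to between 0.07 and 0.24. Probe sets called ranged from 31 to 168 (158 in the main setting) for CD4 cells with IL-4, 44 to 138 (128) with IL-2, 59 to 129 (117) with IL-12, 66 to 145 (135) for CD8 cells with IL-4, 46 to 99 (72) for CD8 less CD4 over the cultures and 1 to 95 (73) for B cells. The covariate and block settings were not run for the within-array difference, which stayed between 1.75 and 2.04.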
